A study of Mus musculus with 2 samples.

Results

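The cells described here are liver barcodes that carried MHC class II transcripts and almost no Kupffer cell transcripts. A barcode (the tag of 1 droplet) was a member when it held at least 500 UMIs, at least 6 UMIs summed over Cd74, H2-Aa, H2-Ab1 and H2-Eb1, and at most 1 UMI summed over Clec4f, Vsig4, Timd4, Cd5l, Marco, C1qa, C1qb and C1qc. A UMI is a molecular tag that counts 1 captured RNA molecule. The members were thus chosen by the measured UMIs of these 12 genes and by the total, and the values of those genes are given as a description. By this rule 145 of 341974 barcodes were members, or 145 of the 25563 barcodes with at least 500 UMIs. The control library held 4 of them and the glutamine synthetase knockout (GS_KO) library 141.

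The study profiled liver cells of 2 mice without tumours by 10x Genomics 5-prime single-cell RNA sequencing. Both mice were 11 weeks old and carried floxed alleles of Glul, the gene of glutamine synthetase. The control mouse received AAV8-GFP and the GS_KO mouse AAV8-Cre, and 2 weeks later the livers were digested by perfusion with 0.3 mg/mL collagenase II. Hepatocytes were then pooled with purified non-parenchymal cells, and the labels use the words single-cell and single-nucleus for the same assay. AAV8 is a serotype chosen to reach hepatocytes, and the labels name no promoter for Cre. With 1 mouse and 1 library a group there is no test between groups, and every interval below is a 95% interval that covers counting error only. Intervals are exact Poisson for a level, Clopper-Pearson for a share and conditional for a ratio.

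MHC class II molecules are pairs of alpha and beta chains that show peptides from engulfed material to CD4 T cells. Cd74, the invariant chain, fills the peptide groove during assembly, and H2-DM then loads the peptide. Dendritic cells, B cells and macrophages are the professional carriers of this machinery. Liver dendritic cells include a conventional type 1 (cDC1), known for cross-presentation to CD8 T cells, a conventional type 2 (cDC2), and plasmacytoid cells. Kupffer cells, the resident macrophages of the sinusoids, can carry MHC class II too, which is why their markers were used to set them apart.

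The libraries totalled 61635695 UMIs (control) and 57973740 UMIs (GS_KO). Glul stood at 114 CPM (UMIs per 1000000) in the control library as a whole and at 13.9 CPM in the GS_KO library, and the members held 1 and 3 Glul UMIs. The libraries shared 8108 barcodes, which is 4.88% of control and 4.61% of GS_KO barcodes, and no barcode was a member in both. The barcodes of 4 GS_KO members also occur in the control matrix, none of them with 500 UMIs there. Barcodes of 200 to under 300 UMIs of the same library served as background and are taken here to hold mostly free RNA. This background also holds small cell barcodes, since single ones carried up to 27 class II UMIs and 7 GS_KO ones held at least 2 cDC1 genes. The 4 MHC class II genes together reached 43.2 CPM in control background and 1113 CPM in GS_KO background.

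Members made up 4 of 13692 control barcodes with at least 500 UMIs, a share of 0.0292% (0.00796 to 0.0748). In the GS_KO library they made up 141 of 11871, or 1.19% (1.00 to 1.40). The ratio of the shares was 40.7 (15.5 to 151), a number that the rule itself helps to fix and that rests on 1 mouse a group. More cells of this kind and more class II transcripts per cell cannot be told apart by this count. Kupffer-bearing barcodes, with the same MHC class II limit but 2 or more Kupffer UMIs, numbered 22 among control and 1042 among GS_KO barcodes. Members were thus 4 of 26 MHC class II barcodes in the control, 15.4% (4.36 to 34.9), and 141 of 1183 in the GS_KO library, 11.9% (10.1 to 13.9), and the intervals overlap.

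GS_KO members were small. Their total ran from 500 to 2348 UMIs with a median of 614, and 17 of the 141 reached 1000. The 4 control members held 559, 569, 619 and 1270 UMIs. The median mitochondrial share in GS_KO members was 5.27%, and the 12 hepatocyte-list genes stood at 52.9% of their background level, so hepatocyte RNA was present in members too. Malat1, a nuclear RNA, stood at 11578 CPM in GS_KO members, 1181 CPM in background and 23162 CPM in the other barcodes of at least 500 UMIs. Summed MHC class II UMIs of GS_KO members ran from 6 to 36 with a median of 12. At the edges of the rule, 14 GS_KO barcodes held exactly 6 MHC class II UMIs and 24 held 5, and 49 members held 1 Kupffer UMI while 45 barcodes just outside held 2. The plot of total against MHC class II UMIs shows the highest MHC class II sums among members of under 700 total UMIs.

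**Figure D1:**
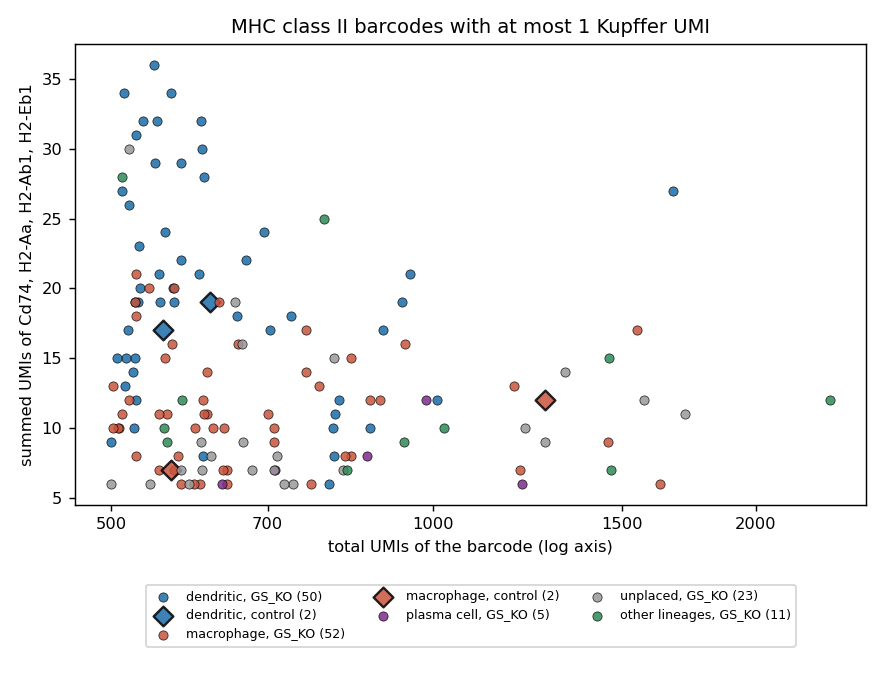
Total UMIs (log axis) against the summed UMIs of Cd74, H2-Aa, H2-Ab1 and H2-Eb1 for each of the 145 members, 1 point a barcode. Colours give the lineage that other genes placed a member in, circles are the 141 GS_KO members and diamonds the 4 control members. The 50 dendritic-placed GS_KO members have a median of 19 MHC class II UMIs and the 52 macrophage-placed ones a median of 11.

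The class II genes that selected the members were carried by most of them, and these values are a description of the rule. All 141 GS_KO members held Cd74, with 1050 UMIs in all. H2-Aa, the alpha chain of the I-A molecule, gave 648 UMIs in 133 members, and H2-Ab1, its beta chain, 319 UMIs in 110 members. H2-Eb1, the beta chain of the I-E molecule, gave 9 UMIs in 8 members. H2-Eb1 was low in the libraries as a whole too, at 17 control and 259 GS_KO UMIs, and whether the mice carry an expressed I-E allele or how well its reads map was not examined, so this count is not a reading of I-E. The 4 control members held 21 Cd74, 27 H2-Aa, 7 H2-Ab1 and no H2-Eb1 UMIs.

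H2-Aa lies at chr17:34282744-34287823 on the minus strand, H2-Ab1 at chr17:34257689-34269419 on the plus strand and H2-Eb1 at chr17:34305867-34316674 on the plus strand (GRCm38, mm10). MHC class II promoters are known for a conserved module that ends in a Y box, an inverted CCAAT motif bound by NF-Y. The 8 letters CTGATTGG (CCAATCAG on the other strand, no other motif searched) were looked for in the 250 bases before the start. They occur in 4 of the 13 listed class II pathway genes that were counted, namely H2-Aa, H2-Eb1, H2-Eb2 and H2-Oa. The 13 have a RefSeq promoter entry. Cd74 was left out of them by a filter that dropped its chromosome and no other, so the count does not cover Cd74. Over all 32851 promoter entries the share is 3.83%. The windows of H2-Aa and H2-Eb1 are given because they are the counted rule genes whose promoters hold the motif, and H2-Ab1 had no promoter entry. They are 130 bases long, 5′ to 3′ on the gene's strand, from RefSeq on GRCm38.p6, overlap no annotated exon of the gene, and have the Y box in capitals. The H2-Aa window is chr17:34287854-34287983 (minus strand), with the motif 51 to 44 bases before the start. The H2-Eb1 window is chr17:34305707-34305836 (plus strand), with the motif 62 to 55 bases before the start. A letter match is a description and not a shown binding site.
H2-Aa: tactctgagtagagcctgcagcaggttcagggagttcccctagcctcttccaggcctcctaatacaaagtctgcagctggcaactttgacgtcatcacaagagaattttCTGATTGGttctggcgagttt
H2-Eb1: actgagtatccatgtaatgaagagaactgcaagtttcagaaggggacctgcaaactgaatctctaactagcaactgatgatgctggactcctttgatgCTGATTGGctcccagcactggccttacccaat

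Identity was read from genes outside the rule, as CPM of the UMIs summed over the 141 GS_KO members against CPM in the background. A gene was called when it differed 2-fold or more with the interval of the ratio outside 1 and had at least 20 UMIs over both sums. Of 11487 genes compared, 2037 were called higher in members, or 17.7%, and 181 lower, or 1.58%, and the median log2 ratio was 0.32. The cDC1 list stood furthest above background among the lineage lists, at 1147 CPM (950 to 1373) against 47.5 CPM, or 24.2-fold (19.8 to 29.3). All 12 of its genes were seen, and all 7 that met the 20-UMI limit were called higher, with a median log2 ratio of 3.11. The rest of the lineage lists follow by cell type.

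Xcr1, the chemokine receptor that defines cDC1, gave 11 UMIs in 9 members (106 CPM, 52.9 to 190) against 2 UMIs in the whole background, a ratio of 984 (215 to 9135). Clec9a, the cDC1 receptor for dead-cell actin, gave 10 UMIs in 8 members and a ratio of 298 (98.2 to 998). Wdfy4, which is required for cross-presentation, gave 20 UMIs in 15 members, 193 CPM against 1.46 CPM in background. Naaa, a lysosomal lipid hydrolase, gave 15 UMIs in 13 members and a ratio of 81.3 (41.0 to 154). Irf8, the transcription factor that cDC1 depend on, gave 11 UMIs in 9 members, and its partner Batf3 gave 4 UMIs in 4. After thinning to 500 UMIs, Irf8 was seen in 4.96% (2.02 to 9.96) of members and 4.61% (3.42 to 6.06) of Kupffer-bearing barcodes, and of 5 cDC1 genes compared with the latter 2, Wdfy4 and Naaa, were called higher in members. Cadm1, an adhesion molecule of cDC1, gave 22 UMIs in 18 members, at 212 CPM against 27.8 CPM, but Kupffer-bearing barcodes held it at 286 CPM.

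After each barcode was thinned to 500 UMIs, Xcr1 was seen in 9 of 141 members, 6.38% (2.96 to 11.8), and in 0.480% (0.156 to 1.12) of Kupffer-bearing barcodes. It was seen in none of 6851 GS_KO barcodes with no MHC class II UMI and at most 1 Kupffer UMI, which allows a share of up to 0.0438% by the limit of 3 counts. For Wdfy4 these shares were 9.93%, 1.73% and 0.0876%, in the same order. The unthinned counts were 9 and 15 members for Xcr1 and Wdfy4, and median depths were 614, 605 and 683 UMIs. Both genes were thus seen more often in members than in barcodes of similar depth without class II RNA, by more than the counting intervals. At least 2 of the 12 cDC1 genes were seen in 27 members, 19.1% (13.01 to 26.6), in 35 of 1042 Kupffer-bearing barcodes, 3.36% (2.35 to 4.64), and in 0.571% of all other barcodes of at least 500 UMIs.

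Cst3, the protease inhibitor cystatin C and an abundant transcript of conventional dendritic cells, was called higher than both background and Kupffer-bearing barcodes. It gave 649 UMIs in 92 members, 6257 CPM (5785 to 6757) against 237 CPM in background and 1738 CPM in Kupffer-bearing barcodes. Plbd1 stood at 270 CPM against 34.9 CPM in background. Btla, an inhibitory receptor of lymphocytes and cDC1, gave 11 UMIs in 10 members, and the growth factor receptor Flt3 gave 2 UMIs. Of the 7 shared dendritic genes compared, 3 were called higher than background, against 17.7% of all genes. The summed list stood at 7009 CPM, 11.9-fold over background (11.1 to 12.9). Dpp4 and Kmo stood at 135 CPM each against 149 and 159 CPM in background.

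The other dendritic types were little represented. The cDC2 list stood at 318 CPM against 59.5 CPM, 5.35-fold (3.66 to 7.55). All 5 genes compared were called higher, against 17.7% of all genes. Its defining members Cd209a and Mgl2 were at 0, and Clec10a gave 6 UMIs. The largest part of that list was Sirpa with 13 UMIs, and macrophages carry Sirpa as well. Members held the cDC2 list at 0.693 of its level in Kupffer-bearing barcodes (0.469 to 0.992). In the placing below it gave 7 UMIs (216 CPM) in dendritic-placed and 18 (487 CPM) in macrophage-placed members. Mature dendritic genes summed to 9 UMIs, a ratio of 2.17 (0.987 to 4.14) whose interval includes 1, with Ccr7 at 3 UMIs. The summed plasmacytoid list did not differ from background at this depth, at 0.961-fold (0.750 to 1.21), and Siglech gave 2 UMIs. Bst2 alone made up 685 of the 712 CPM of this list in background, so the sum says little about its other genes. Of its 4 genes compared 1 was called higher, and their median log2 ratio was 1.08.

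Mature B cell genes were nearly absent. Ms4a1, Pax5 and Ighd were at 0, Cd79a gave 4 UMIs and Cd79b 3, and the largest part of the list was the light chain constant gene Iglc2 with 10 UMIs. The B cell list stood at 202 CPM against 28.0 CPM (7.24-fold, 4.44 to 11.2). Plasma cell genes were high in very few barcodes. Jchain, which joins immunoglobulin polymers, gave 97 UMIs in 6 members, Igkc 40 UMIs in 6, Igha 27 in 5 and the chaperone Mzb1 21 in 5. The 5 members placed as plasma cells held 96 of the Jchain UMIs and all 21 Mzb1 UMIs. With those 5 left out, the plasma list fell from 10.1-fold to 1.27-fold over background and the B cell list to 2.88-fold. These 5 held 6 to 12 MHC class II UMIs each, near the lower limit of the rule.

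Monocyte genes were mixed. Ccr2, the receptor that draws monocytes out of the marrow, gave 17 UMIs in 16 members, at 164 CPM against 1.67 CPM in background and 30.1 CPM in Kupffer-bearing barcodes. Plac8 gave 27 UMIs in 24 members, Ms4a6c 19 in 18 and Ms4a4c 10 in 10. Ly6c2, Chil3 and F13a1, which mark classical monocytes, gave 1 UMI each, and Vcan was at 0. Fn1, which hepatocytes also express, stood at 954 CPM against 842 CPM in background. Ccr2 and Plac8 were seen together in 2 members, and alone in 14 and 22. In the placing below, dendritic-placed members held 8 of the Ccr2 and 12 of the Plac8 UMIs, and macrophage-placed members 6 and 13. The nonclassical monocyte list stood at 241 CPM, 5.12-fold over background (3.30 to 7.61), but at 0.264 of its level in Kupffer-bearing barcodes (0.170 to 0.394).

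Macrophage genes were present below the Kupffer-bearing level. The 14 shared macrophage genes stood at 4329 CPM in members, 1158 CPM in background and 10414 CPM in Kupffer-bearing barcodes. Lyz2, lysozyme, gave 166 UMIs in 61 members, at 1600 CPM against 149 and 2967 CPM. Tyrobp and Fcer1g, signalling adaptors of myeloid receptors, gave 61 and 59 UMIs, and Csf1r, the macrophage growth factor receptor, 13. Against Kupffer-bearing barcodes 113 of 6265 genes were called higher, or 1.8%, and 350 lower, or 5.59%. Of the shared macrophage genes 11 of 14 were called lower in that comparison, and the summed list stood at 0.416 of the Kupffer-bearing level (0.377 to 0.457).

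The label was set beside 14 Kupffer genes that the rule did not use. They stood at 897 CPM in members, 609 CPM in background and 4852 CPM in Kupffer-bearing barcodes, and 11 of 14 were called lower than in the latter. Members and Kupffer-bearing barcodes were split by Kupffer UMIs, so those calls were partly set in advance and do not check the label. Over background the list stood at 1.47-fold (1.19 to 1.81), with 3 of 14 genes called higher and none lower. Of all genes, 17.7% were called higher over background, a share near that of this list. Fcna gave 2 UMIs, Folr2 3, and Cd163 and Kcna2 none. Slc40a1 gave 12 UMIs and Id3 11 in the members placed as macrophage below. Of the markers of other cells, the T cell list gave 1 UMI and the neutrophil list 1. The NK and ILC list stood at 386 CPM, most of it from Rora, which liver parenchyma also expresses. The sinusoidal endothelial list stood at 424 CPM against 241 CPM in background and the stellate list at 598 against 339 CPM, while mast cell and mesothelial genes were at 0.

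**Figure D2:**
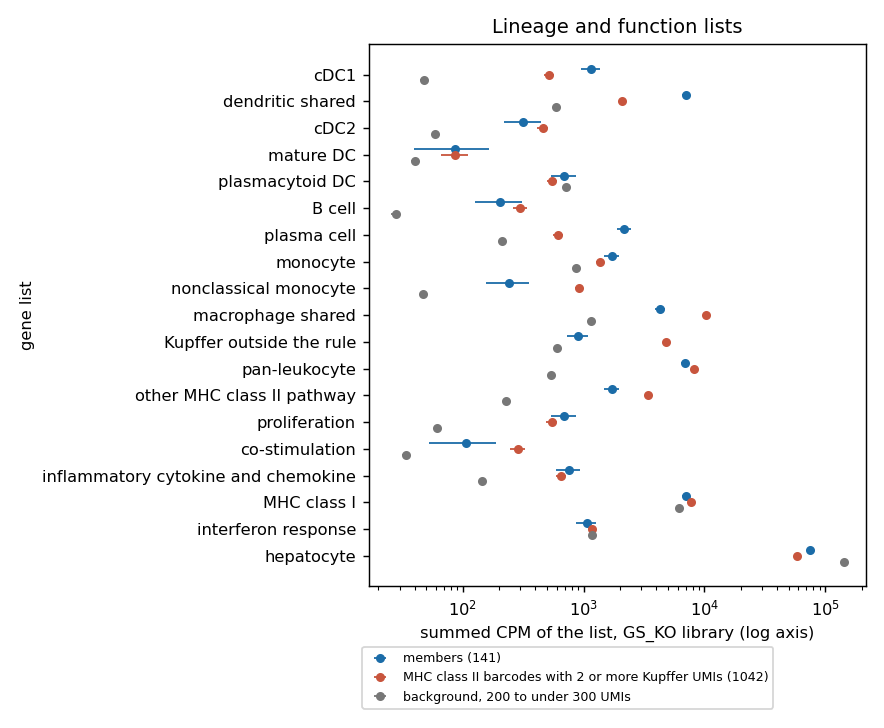
Summed CPM of each gene list (log axis) in GS_KO members, in Kupffer-bearing MHC class II barcodes and in background barcodes of 200 to under 300 UMIs, with 95% counting intervals. The cDC1 and shared dendritic lists lie higher in members than in the other 2 populations, at 1147 and 7009 CPM, and the macrophage and outside-rule Kupffer lists lie below the Kupffer-bearing level.

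The 20 leading genes outside the rule, ranked by their log2 ratio over background with 5 CPM added, included genes known from plasma cells, dendritic cells and leukocytes in general. Jchain, Mzb1, Igkc and Igha came from 5 or 6 members each. The dendritic genes among them were Wdfy4, Cst3, Naaa, Xcr1, Btla and Clec9a. Lsp1 and Coro1a, actin-binding proteins of leukocytes, were seen in 24 and 20 members, Cd52 in 38, Tmsb10 in 38 and Dock2, which drives leukocyte migration, in 40. Ifi205, an interferon-inducible gene, gave 12 UMIs in 11 members and 116 CPM against 0.0539 CPM in background. Ccl4, a chemokine, gave 13 UMIs in 7 members. Ccr2, Ms4a6b and Ms4a4c completed the set. Of the pan-leukocyte list, 14 of 15 genes were called higher than background, against the 17.7% of all genes, and Ptprc, the CD45 antigen, gave a UMI in 30 members.

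**Figure D3:**
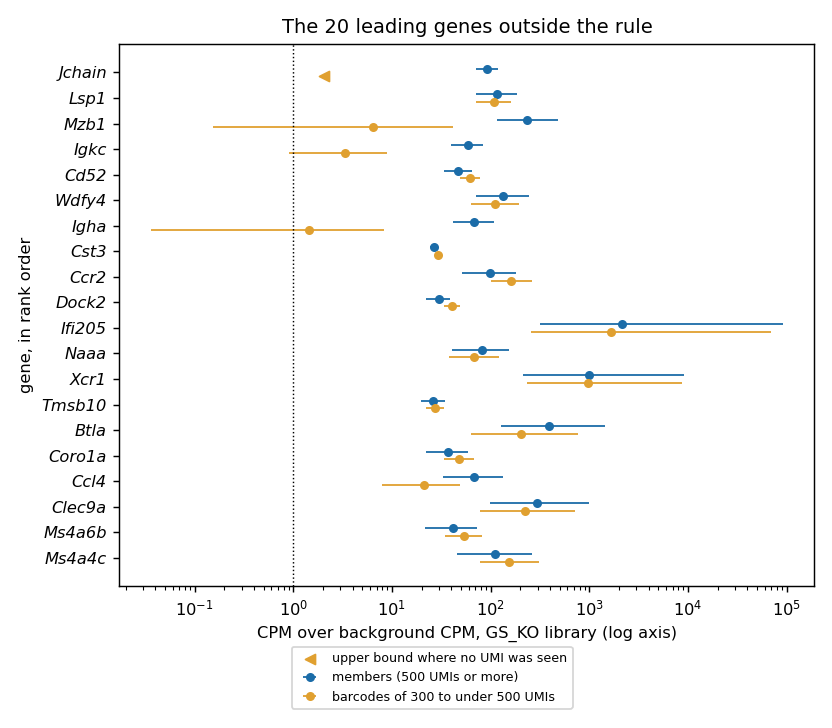
CPM over background CPM (log axis) for the 20 leading genes in GS_KO members and in barcodes of 300 to under 500 UMIs that met the same MHC class II and Kupffer limits, with 95% counting intervals. The smaller barcodes repeat 16 of the 20, with Xcr1 at 984 and 976, and the 4 immunoglobulin-linked genes Jchain, Mzb1, Igkc and Igha are not called there.

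Each member was then placed by the lineage list with the largest excess of UMIs over what the background would give at its depth, if the excess was at least 2 UMIs from at least 2 genes. Of 141 GS_KO members, 50 were placed as dendritic, 35.5% (27.6 to 44.0), and 52 as macrophage, 36.9% (28.9 to 45.4). A further 23 met no list, 5 were placed as plasma cells, 4 as monocytes, 3 as stellate, 2 as plasmacytoid, 1 as B cell and 1 as endothelial. The dendritic placing rested largely on Cst3. In dendritic-placed members Cst3 gave 590 of the 645 UMIs of the shared dendritic list, and the cDC1 list gave 105 UMIs. At least 2 cDC1 genes were seen in 26 of those 50 members. The same placing put 90.1% of Kupffer-bearing barcodes in the macrophage group and 2.59% (1.71 to 3.75) in the dendritic group. It was also applied to the 10190 GS_KO barcodes with under 6 class II UMIs and at most 1 Kupffer UMI. Of those, 379 were placed as dendritic, 3.72% (3.36 to 4.11), 273 as macrophage and 101 as plasma cell, so these placings were not confined to members. Of the 17 members with at least 1000 UMIs, 2 were placed as dendritic (11.8%), and of the 53 with at least 700 UMIs 24.5% were, so the dendritic share was carried by small barcodes. The 23 unplaced members carried Malat1 at 17400 CPM, against 7704 CPM in dendritic-placed and 12043 CPM in macrophage-placed members. No doublet caller was applied to barcodes of this size, and the part that mixed droplets play was not tested.

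The class II values of the placed groups are a description, since these genes chose the members. In dendritic-placed members the class II sums ran from 6, the limit of the rule, to 36 UMIs with a median of 19, and the 4 rule genes stood at 31033 CPM. Macrophage-placed members had 6 to 21 class II UMIs, a median of 11 and 16264 CPM. Median total UMIs were 570 and 614, and median mitochondrial shares 5.37% and 5.61%. The Kupffer rule genes stood at 277 CPM in dendritic-placed and 812 CPM in macrophage-placed members, against 553 CPM in background and 12983 CPM in Kupffer-bearing barcodes. Kupffer genes outside the rule, which helped to place members as macrophage, stood at 401 CPM (213 to 685) in dendritic-placed members. In macrophage-placed members they stood at 1488 CPM (1121 to 1937), above the 609 CPM of background. No Kupffer UMI was seen in 41 of 50 dendritic-placed and in 22 of 52 macrophage-placed members.

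Any UMI of Cst3 and of Lyz2 met in 33 members, with Cst3 alone in 59 and Lyz2 alone in 28, while higher counts of both met in 1 member. Of the 141 GS_KO members, 46 held 5 or more Cst3 UMIs and 22 held 3 or more Lyz2 UMIs, and 1 met both limits, while 74 met neither. These limits were chosen after the values were seen. Cst3 itself was spread over a gap: 92 members held 0 to 2 UMIs, 3 held 3 or 4, and 46 held 5 to 26. Of the 46 with 5 or more Cst3 UMIs, 30 also held Xcr1, Clec9a, Wdfy4, Naaa or Cadm1. Of the cDC1 gene pairs counted, Xcr1 and Clec9a occurred together in 1 member and apart in 8 and 7. Xcr1 and Wdfy4 met in 3 members, Clec9a and Wdfy4 in 4, and Wdfy4 and Naaa in 6. At a few UMIs a gene, a missing marker in a barcode does not show that its cell lacked it.

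**Figure D4:**
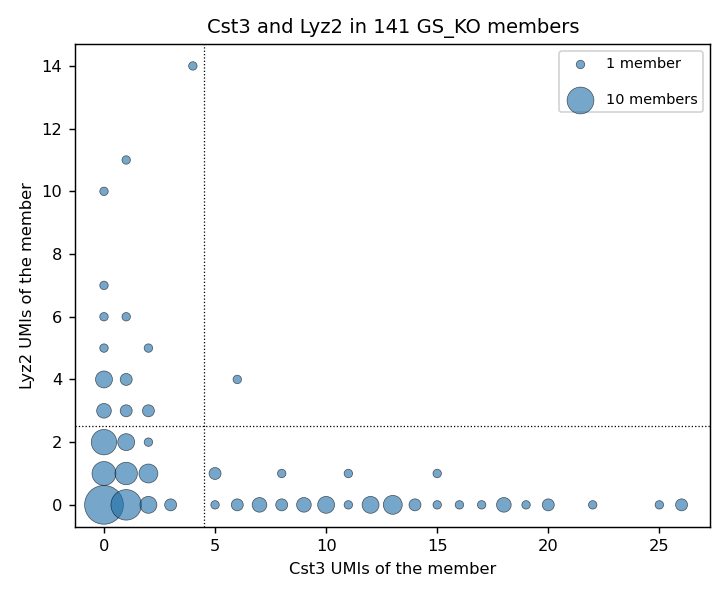
Cst3 UMIs against Lyz2 UMIs of the 141 GS_KO members, with the area of a circle in proportion to the number of members and dotted lines at 5 Cst3 and 3 Lyz2 UMIs. The upper right field holds 1 member, the lower right 45 and the upper left 21.

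Genes that neither the rule nor a lineage list used also differed between the 50 dendritic-placed and the 52 macrophage-placed members. Of 1103 such genes with at least 10 UMIs, 73 were called higher in the dendritic group, or 6.62%, and 54 lower, or 4.9%. Of the 73 higher genes, 37 encode ribosomal proteins, such as Rpl13a with 75 UMIs against 29. The 54 lower genes include hepatocyte enzymes such as Ass1 and Cyp27a1, and the hepatocyte list stood at 70202 CPM in the dendritic and 79563 CPM in the macrophage group, a shift whose part in these calls was not tested. Lsp1 gave 23 UMIs against 2, a ratio of 13.1 (3.24 to 115). Id2, a transcription regulator needed for cDC1 development, gave 37 against 8, a ratio of 5.27 (2.41 to 13.1). Tmsb10, a small actin-binding protein, gave 43 against 5, and its relative Tmsb4x 247 against 113. Ifi205, Rnase6 and Hdac9 gave 12, 10 and 11 UMIs against none. Hmgb2, a chromatin protein high in dividing cells, gave 15 against 4.

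In the macrophage-placed members, Lgmn, the lysosomal protease legumain, gave 12 UMIs against none in the dendritic group. Ms4a6b gave 13 against 1, Cybb, the catalytic part of the phagocyte oxidase, 21 against 6, and Zeb2, a macrophage transcription factor, 15 against 4. Abca1, which exports cholesterol, gave 14 against 2 and Ptprc 20 against 7. Ctss, the protease that trims the invariant chain, gave 35 UMIs in the macrophage and 18 in the dendritic group, a dendritic to macrophage ratio of 0.586 (0.312 to 1.06) that was not called. These examples were chosen after their values were seen.

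**Figure D5:**
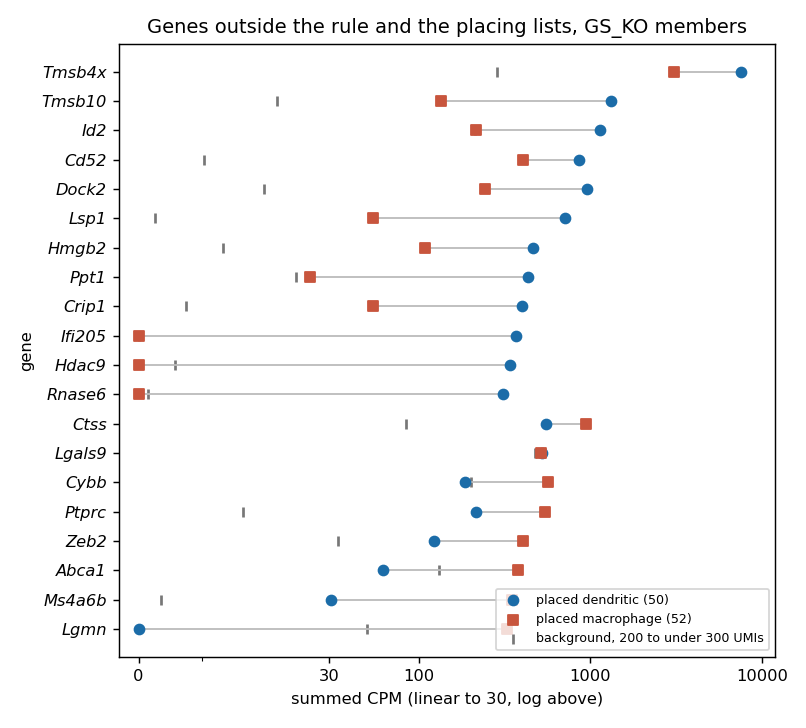
Summed CPM (linear to 30, logarithmic above) of 20 genes outside the rule and the placing lists, chosen after their values were seen, in dendritic-placed members (circles), macrophage-placed members (squares) and background (ticks). Lsp1, Id2, Tmsb10 and Ifi205 lie higher in the dendritic group, Lgmn, Ms4a6b and Cybb higher in the macrophage group, and Lgals9 lies at 524 and 514 CPM.

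The rest of the class II pathway accompanied the rule genes. Of 14 further genes, 11 were compared with background and 8 were called higher, against 17.7% of all genes. The summed list stood at 1706 CPM against 230 CPM, 7.42-fold (6.35 to 8.63). Ctss gave 66 UMIs in 48 members, H2-DMa, part of the peptide-loading molecule, 33 in 27, and Ifi30, the lysosomal thiol reductase, 32 in 25. H2-DMb1 gave 11 UMIs in 11 members, and Ciita, the master activator of class II transcription, 6 in 6. H2-Oa and H2-Ob, which restrain peptide loading, gave 5 and 2 UMIs, and Cd83 none. In Kupffer-bearing barcodes the list stood at 3449 CPM. Ctss, Ifi30 and Lgmn were lower in members than in Kupffer-bearing barcodes by call, and H2-DMa, at 318 against 433 CPM, was not.

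Among function lists, proliferation stood at 694 CPM against 61.8 CPM in background, 11.2-fold (8.72 to 14.3). Of its 10 genes compared 9 were called higher, against 17.7% of all genes. Hmgb2 gave 27 UMIs in 15 members, Pclaf 8 in 5, Top2a 6 in 6 and Mki67 5 in 5. At least 2 proliferation genes were seen in 12 members, 6 of them dendritic-placed, and the list stood at 1264 CPM (907 to 1714) in dendritic-placed and 271 CPM (130 to 498) in macrophage-placed members. Against Kupffer-bearing barcodes the list differed by 1.28-fold (0.978 to 1.64). In 7.49% of Kupffer-bearing barcodes and 8.51% of members at least 2 of these genes were seen.

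Co-stimulatory genes were sparse: Cd80 and Cd86 gave 2 UMIs each, Cd40 none and Cd274, the PD-L1 gene, 5. The summed list, with 11 UMIs, stood at 3.10-fold over background (1.54 to 5.58) and at 0.373 of the Kupffer-bearing level (0.183 to 0.681). Of the inflammatory genes, Il1b gave 18 UMIs in 13 members, Ccl5 14 in 7, Cxcl9 12 in 11 and Cxcl16 10 in 10, while Tnf, Il6, Ccl3, Il12a and Ptgs2 were at 0. Of 10 inflammatory genes compared, 5 were called higher than background, against 17.7% of all genes. Against Kupffer-bearing barcodes the inflammatory list stood at 1.16-fold (0.899 to 1.47), with 1 of 8 genes called higher and 1 lower. Of 10 genes on the immunosuppressive list, 4 were called higher, namely Tgfb1, Vsir, Havcr2 and Trem2, at 2 to 7 UMIs each, and the summed list stood at 0.870 of background (0.728 to 1.03). Il10 and Ido1 gave no UMI, Arg1 stood at 656 CPM against 931 CPM in background and Lgals9 at 415 against 475 CPM. The interferon list stood at 0.905 of background (0.744 to 1.09) and the MHC class I list at 1.14-fold (1.06 to 1.23).

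The 4 control members can be given singly. The first held 619 UMIs, 19 of them class II, with 11 Cst3, 2 Irf8 and 7 Tmsb4x UMIs, and was placed as dendritic. The next held 559 UMIs, 17 of them class II, with 1 Ccr7, 1 Ccl22 and 2 Cst3 UMIs, and was also placed as dendritic. The third held 1270 UMIs, 12 of them class II, with 2 Lyz2 and 4 Fn1 UMIs, and the fourth 569 UMIs, 7 of them class II, with 1 Lyz2, 2 Tyrobp and 1 Fcer1g UMI, and both were placed as macrophage. None held Xcr1, Clec9a or a Kupffer UMI. With 4 barcodes, a share of 50% dendritic has an interval of 6.76% to 93.2%, so the makeup of the members in the 2 libraries could not be compared.

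The levels of Cst3 and Lyz2 in members did not differ between the libraries beyond their counting intervals, which the 4 control members leave wide. Cst3 stood at 4972 CPM in the 4 control members (15 UMIs) and 6257 CPM in GS_KO members, a ratio of 1.26 (0.757 to 2.26). Lyz2 stood at 994 CPM (3 UMIs) and 1600 CPM, a ratio of 1.61 (0.541 to 7.88). Of 800 genes with at least 20 UMIs over both sums, 17 lay 2-fold or more higher in GS_KO members with an interval outside 1, or 2.12%, and 29 lower, or 3.62%. For 42 of these 46 genes the ratio in background barcodes had the same direction. Examples chosen after their values were seen are the acute phase protein haptoglobin, Hp, with 3 control and 744 GS_KO UMIs and a ratio of 7.21 (2.46 to 35.1) in members and 7.20 in background, and Cyp2e1, a pericentral hepatocyte enzyme, with ratios of 0.262 and 0.367. Both are hepatocyte transcripts, and 6 of the 46 genes are on the hepatocyte or acute phase lists.

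Barcodes were also counted without the class II limit, by limits on other genes set after the members' values were seen, so these counts are no independent evidence. With at least 5 Cst3 UMIs and at most 1 Kupffer UMI, 1 control and 50 GS_KO barcodes were found, and 46 of those 50 were members. With at least 3 Lyz2 UMIs instead, 9 control and 44 GS_KO barcodes were found, and 22 of the 44 were members. Among barcodes with at least 4 Kupffer UMIs, which numbered 195 (1.42%) of control and 1100 (9.27%) of GS_KO barcodes, those with at least 6 class II UMIs made up 10.3% (6.38 to 15.4) and 85.0% (82.8 to 87.1). The background level of class II RNA, which also differed between the libraries, is given above, and its part in these counts was not tested.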

How the data were processed

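Each library came as a deposited table of UMI counts, whole numbers per gene and barcode for 32285 genes and not normalized, counted with Cell Ranger 8.0.0 on mm10 per the submitters' processing notes. The sources used here do not say how the deposited barcodes were chosen. UMIs were summed over members, Kupffer-bearing barcodes, other barcodes of at least 500 UMIs and background barcodes, and scaled to CPM of the summed total. UMI counts were not scaled to transcript length. Printed ratios add no counts, and ranking adds 5 CPM. Named genes were the 12 rule genes, the 20 leading genes with at least 10 UMIs in at least 5 members (mitochondrial, ribosomal, variable immunoglobulin, clone-named and sex-linked genes left out), and list genes with at least 10 UMIs or at 0 where they define a cell type. Other genes in the text, list genes at 1 to 9 UMIs among them, were chosen after their values were seen. The members and the 36 gene lists were chosen with earlier results of these data known, and the deposited gene names hold all but 2 of the 415 listed genes. Total UMIs of members set the precision, and intervals cover counting error, not mice, digestions or preparations. The procedure was tested on simulated data. Alternatives changed the limits of the rule, the background, the scaling, thinning and placing. Tools were Python 3.11.15 with numpy, pandas, scipy and matplotlib.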

Additional observations from a re-analysis of the deposited data

Results flagged for a closer look

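Barcodes just under the 500-UMI limit are no members, and some of them met the same marker limits. Of 81760 GS_KO barcodes with 300 to under 500 UMIs, 459 met the MHC class II and Kupffer limits, 0.561% (0.511 to 0.615), against 22 of 113497 control barcodes, 0.0194% (0.0121 to 0.0293). Their cDC1 genes stood 21.7-fold (18.4 to 25.4) over background, and 81 held 5 or more Cst3 UMIs, 63 held 3 or more Lyz2 UMIs and none held both. Of the 459, 117 were placed as dendritic (25.5%), 219 as macrophage (47.7%), none as plasma cell and 86 in no lineage. Xcr1 gave 19 UMIs in 16 of them, Ccr2 49 in 48 and Cd52 115 in 90, while Jchain gave none and Igha 1.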

How the results depend on the processing

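Counts of members followed the limits of the rule. GS_KO and control members numbered 17 and 1 at a minimum of 1000 UMIs and 53 and 1 at 700 UMIs. They numbered 50 and 1 with 5 Cst3 UMIs in place of the class II limit, an alternative chosen after seeing the data. GS_KO members numbered 92 with no Kupffer UMI and 248 with at most 3, and control members 9 with at least 4 class II UMIs. The log2 ratio of shares stayed between 3.98 and 5.88 in these settings. Genes called over background numbered 1001 higher and 110 lower at 1000 UMIs, and 314 lower with mitochondrial and hepatocyte-list genes left out of the total. The dendritic-placed percentage was 11.8 at 1000 UMIs, 24.5 at 700, 27.5 with at least 4 and 47.4 with at least 10 class II UMIs, 44.6 with no Kupffer UMI, 22.6 with at most 3, and 25.5 when placing needed 3 UMIs of 3 genes. The macrophage-placed percentage was 23.9 with no Kupffer UMI and 51.2 with at most 3.

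Between GS_KO and control members, genes higher numbered 10 at 1000 UMIs, 8 at 700, 31 and 11 with at least 4 and at least 10 class II UMIs, and 8 after thinning. Genes lower numbered 6 at 1000 UMIs, 15 at 700, 48 with at most 3 Kupffer UMIs, 16 after thinning, 6 with free RNA taken off and 87 with no minimum per gene, the last chosen after seeing the data. At 1000 UMIs the 17 members left held no UMI of Igha, Xcr1, Btla or Ccl4, a fold of 0 for each. Without the plasma-placed members Jchain stood at 0.994 of background and Mzb1 at 0. Of 336 folds of lists and named genes over background under the alternatives, 330 stayed above 1 and 315 above 2. The causes of these changes were not tested. No paired analysis was possible because each group is 1 library of 1 mouse. At a median of 614 UMIs a member, a marker at 0 may be missed.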

Other observations

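The members placed as plasma cells shared immunoglobulin segments. Igkv3-5 and Ighv1-81, variable segments of the kappa light and the heavy chain, were both present in 3 of the 5, with 49 and 22 UMIs in the first, 89 and 57 in the second and 245 and 91 in the third. The other 2 of the 5 held none of either and carried 41 UMIs of Igkv4-74 and 169 UMIs of Igkv15-103. Over all 141 GS_KO members, 383 of 388 Igkv3-5 UMIs and 170 of 171 Ighv1-81 UMIs lay in plasma-placed barcodes. Both segments also occurred outside the members. In the other barcodes of at least 500 UMIs their GS_KO over control ratios were 2879 and 81.4. Igha was seen in the first 2 of the 3 with the shared segments, with 7 and 8 UMIs, and not in the third, whose total was 1210 UMIs. These segments were chosen after their values were seen, and no reads were available here to compare junctions.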
